A study of Mus musculus with 12 samples.

Results

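The probes described here are the array oligonucleotides whose names begin with humanlincRNA, a number and a strand sign. They were taken by name from the scanner files, leaving out control spots, and there were 1104 of them among 60915 probes. Each was printed once on the array. Of these, 549 carried a plus sign and 555 a minus sign. The names held 557 different numbers, of which 547 occurred with both signs, 2 with the plus sign alone and 8 with the minus sign alone.

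Long intergenic noncoding RNAs, or lincRNAs, are transcripts that lie between protein-coding genes, are often spliced and polyadenylated, and are not translated into a known protein. Many are present at low levels and in few tissues, and the brain is one of the tissues in which many have been catalogued. Their sequence is less well conserved between mammals than that of protein-coding genes, while parts of some are found in both human and mouse. The files gave these probes no gene name, genome position or sequence, so what each probe was designed against, and which genomic strand its sign denotes, is not stated in the sources used here.

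The study profiled long noncoding RNAs and mRNAs in olfactory bulb, hypothalamus, hippocampus and cerebellum of 10-week-old male BALB/c mice. The mice carried no stated genetic change and received no stated treatment, and the series states that 3 mice were used for the arrays. Total RNA was depleted of ribosomal RNA, amplified with random primers, labelled with Cy3 and hybridised to 1-colour Agilent arrays, with 3 scans deposited per region. The labels do not say which regions came from the same mouse, and p-values here rest on the variation among the deposited samples, part of which may be technical. Each region is a mixture of neurons, glia and vessels, so fewer cells of a type and less RNA per cell cannot be told apart. The labelled regions were not checked against marker genes, since the tables used here did not pair the array's probes with them.

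Scans 1 and 3 of hippocampus differed by a standard deviation of 0.027 (log2) over 11289 bright probes, and scans 1 and 3 of cerebellum by 0.025. The other pairs of scans within a region differed by 0.296 to 0.434. The near-identical pairs were below 0.063, the smallest value found between copies of a probe on 1 array, and each was averaged and counted as 1 sample. The tests therefore used 10 arrays (3 of olfactory bulb, 3 of hypothalamus, 2 of hippocampus and 2 of cerebellum), a number that limits the precision of every comparison.

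A probe was counted as detected where the scanner software called its spot well above background. Of the 1104 human-named probes, 647 (58.6%) were detected on all 12 scans. On none of them 151 were detected, or 13.7%, and the remaining 306 were detected on some. The corresponding share on all scans was 60.9% for 649 probes with mouse lincRNA names and 85.1% for the 59064 probes carrying the array design's own identifiers. None of the scanner software's negative control spots was well above background on any scan. Of the spots of 15 other probes named as negative, 14.7% to 32.8% per scan were well above background. Against a cut of the mean plus 3 standard deviations of the software's negative control spots, 837 of the human-named probes exceeded it on all scans. On every scan, however, the median signal of these control spots equalled the lowest signal of the human-named probes. In cerebellum replicate 1 the cut itself had that value, 4.37. Passing the cut therefore shows little beyond a signal above the lowest one of the scan.

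Detection was highest in cerebellum and lowest in hippocampus. All 3 scans of cerebellum detected 827 of the human-named probes (74.9%), against 744 in hypothalamus (67.4%), 724 in olfactory bulb (65.6%) and 703 in hippocampus (63.7%). The shares over all probes of the array had the same order, 90.8%, 89.1%, 88.6% and 86.9%. In cerebellum and hippocampus the 3 scans stand for 2 arrays, so detection on all of them required fewer separate arrays than in the other regions. The lowest signal called well above background also differed between regions and was highest in hippocampus, with values in the next paragraph. Single scans ranged from 66.4% in hippocampus replicate 2 to 79.3% in olfactory bulb replicate 1, with a median of 74.8%. In olfactory bulb the 3 scans detected 79.3%, 72.6% and 73.7%. In hypothalamus they detected 75.9%, 69.5% and 77.0%. In hippocampus they detected 72.6%, 66.4% and 73.4%, and in cerebellum 77.8%, 78.6% and 77.4%. Replicate 2 was the lowest scan of each region but cerebellum, and the scans of cerebellum overlapped with those of olfactory bulb but lay above those of hypothalamus and hippocampus. The lowest and the highest scan were the same for the array-design probes, of which hippocampus replicate 2 detected the fewest (88.5%) and olfactory bulb replicate 1 the most (93.6%).

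Detection in a single region was uncommon among these probes and on the array as a whole. It was seen for 2 of 1104 human-named probes (0.181%), against 216 of 60915 probes in all (0.355%). humanlincRNA0900+_P1 and humanlincRNA1044-_P1 were detected on every scan of 1 region and on no scan of another, in both cases cerebellum. The reverse pattern, detection on every scan outside 1 region and on none within it, was seen for 4 human-named probes (0.362%) and for 257 probes in all (0.422%). The 4 were undetected in hippocampus, as were 138 of the 257. They were humanlincRNA0266+_P1, humanlincRNA0854+_P1, humanlincRNA1160+_P1 and humanlincRNA1547-_P1, named after their values were seen. None of the 4 passed limma's F test for a difference between regions, with Benjamini-Hochberg adjusted p-values from 0.128 to 0.564. In humanlincRNA0854+_P1, for example, the hippocampus arrays read -6.44 and -5.97, and the other arrays lay between -5.88 and -5.13. The lowest signal well above background averaged -5.75 in hippocampus, -6.03 in hypothalamus, -6.21 in cerebellum and -6.23 in olfactory bulb. A like level could thus be detected elsewhere and not in hippocampus. humanlincRNA1547-_P1 was undetected in hippocampus at -6.01 and -6.10 but detected at -6.13 in cerebellum replicate 2. The part of this limit in the detection counts was not tested.

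Levels are log2 processed signals from which each scan's 75th percentile over all probes was subtracted, so that 0 marks that percentile. The median of the human-named probes, each averaged over the 4 regions, was -4.19, with the 10th percentile at -7.89 and the 90th at -0.88. The median was -4.31 in olfactory bulb, -4.20 in hypothalamus and -4.19 in hippocampus, and was highest in cerebellum. Over single arrays it ran from -4.33 to -4.06 in olfactory bulb and from -4.33 to -4.06 in hypothalamus. It was -3.99 and -4.34 in the hippocampus arrays, and -3.91 and -4.09 in the cerebellum arrays. These ranges overlapped, and the median was lowest on replicate 2 within each region. Brightness also depends on a probe's sequence, so the tests compare a probe across regions and not the levels of different probes. Medians, ranks and correlations of levels over several probes are given as description.

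Few of the human-named probes differed between the 4 regions. Of the 851 that were detected on all scans of at least 1 region and so were tested, 54 differed by limma's F test at an adjusted p under 0.05, or 6.35%. The share over all 56573 tested probes was 36.1%, and among the probes with mouse lincRNA names it was 8.33% (42 of 504). Among the 54, the highest regional mean lay in olfactory bulb for 18, in cerebellum for 14, in hippocampus for 13 and in hypothalamus for 9. Of all differing probes, 27.3%, 28.5%, 15.6% and 28.6% were highest in these regions. The lowest mean lay in cerebellum for 27 of the 54, in hypothalamus for 14, in hippocampus for 9 and in olfactory bulb for 4, where the shares of all differing probes were 35.2%, 17.7%, 31.6% and 15.6%. The distance between the highest and the lowest regional mean ranged from 0.44 to 4.46 on the log2 scale with a median of 1.01, was at least 1 in 27 probes and at least 2 in 9. With the replicate number as a block, 138 members (16.2%) differed, against 53.9% of all probes. This number follows the scan times, except that the averaged hippocampus and cerebellum arrays, numbered 1, mix scan times 1 and 4. Each scan time held 1 array per region or fewer, so no test within a scan time was possible.

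Between pairs of regions, a probe was called where limma's adjusted p was under 0.05 and the difference at least 2-fold. Beside each count stands, in parentheses, the share of all tested probes called in the same way. Olfactory bulb and hypothalamus differed in 9 human-named probes (7.72%), with 8 higher in olfactory bulb (4.14%) and 1 higher in hypothalamus (3.58%). Olfactory bulb and hippocampus differed in 7 (7.22%), with 6 higher in olfactory bulb (4.53%) and 1 higher in hippocampus (2.70%). Hypothalamus and hippocampus differed in 6 (6.40%), with 2 higher in hypothalamus (3.79%) and 4 higher in hippocampus (2.61%). The comparisons with cerebellum gave more. Olfactory bulb differed from it in 17 (9.42%), with 10 higher in olfactory bulb (5.94%) and 7 higher in cerebellum (3.48%). Hypothalamus differed from it in 17 (10.6%), with 6 higher in hypothalamus (6.22%) and 11 higher in cerebellum (4.38%). Hippocampus differed from it in 20 (10.2%), with 10 higher in hippocampus (5.10%) and 10 higher in cerebellum (5.11%). All of these counts are out of the 851 human-named probes tested. These comparisons share their samples. The replicate block raised 3 of these counts by more than 1.5 times. They became 11 for olfactory bulb against hippocampus, 29 for olfactory bulb against cerebellum and 30 for hypothalamus against cerebellum. The block also turned the majority for olfactory bulb against cerebellum, with 11 higher in olfactory bulb and 18 in cerebellum. Without olfactory bulb replicate 1 the counts of its comparisons were 16, 16 and 35 against hypothalamus, hippocampus and cerebellum, and there too most were higher in hippocampus (9, against 7) and in cerebellum (21, against 14). Which of these regions held more of the higher probes therefore depended on the setting. Without hippocampus replicate 1 the olfactory bulb against hippocampus count was 13, and without hippocampus replicate 2 the hippocampus against cerebellum count was 13.

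Of the tested probes, 8 were at least 2-fold higher in 1 region than in each of the others, where 5.56% of all probes were called. They comprised 5 in cerebellum (1.80% of all probes), 3 in olfactory bulb (1.58%), and 0 in hypothalamus (1.34%) or hippocampus (0.843%). A further count of 5 was called 2-fold lower in 1 region than in each of the others (3.40% of all probes), comprising 3 in hypothalamus (0.405%), 2 in cerebellum (2.16%), and 0 in olfactory bulb (0.309%) or hippocampus (0.523%). Both of the cerebellum calls rest on cerebellum readings that were not well above background, for which the fold is only bounded. The number of such calls was 0 with normexp and among probes detected on all scans. It was 1 with quantile normalization, the authors' table and the local median, and 4 with the replicate block. At an unadjusted limma p under 0.05, these 4 counts of 0 were 0 as well. With the replicate block, 1 probe was called higher in hippocampus. Without olfactory bulb replicate 1, the count of lower probes was 9, of which 4 were lower in olfactory bulb, and without hippocampus replicate 1, 2 probes were called lower in hippocampus. There were 3 probes that met both definitions, being highest in cerebellum and lowest in hypothalamus.

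The first of these, humanlincRNA0691+_P1, read 4.51 and 4.48 in the cerebellum arrays, 2.95, 2.91 and 3.22 in olfactory bulb, 2.73 and 2.82 in hippocampus, and 1.13, 1.24 and 1.44 in hypothalamus. Cerebellum stood above every other array and hypothalamus below every other array, while olfactory bulb and hippocampus were neighbours whose difference did not pass (0.25 ± 0.13, SE; adjusted p = 0.258). Cerebellum exceeded the next region, olfactory bulb, 2.77-fold, with a difference of 1.47 ± 0.13 (log2, SE; limma adjusted p = 0.0001071). Hypothalamus fell 2.85-fold below the next lowest region, hippocampus (adjusted p = 0.0001526).

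The second, humanlincRNA2052+_P1, showed the same order. It read 3.68 and 3.96 in cerebellum, 1.35, 1.56 and 1.90 in olfactory bulb, 1.37 and 1.47 in hippocampus and 0.13, 0.10 and 0.39 in hypothalamus. The olfactory bulb and hippocampus arrays overlapped, and the other regions did not overlap with any. Cerebellum was 4.64-fold above olfactory bulb (adjusted p = 5.904e-05), and hypothalamus lay 2.32-fold below hippocampus (adjusted p = 0.002394).

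The third, humanlincRNA1086-_P1, had the largest distance between regions of the human-named probes that differed. It read 0.69 and 1.14 in cerebellum, -1.92, -1.52 and -0.90 in olfactory bulb, -2.20 and -1.67 in hippocampus, and -4.02, -3.57 and -3.05 in hypothalamus. Again olfactory bulb and hippocampus overlapped and the other regions stood apart. The mean was 0.92 ± 0.32 (SD, n = 2) in cerebellum and -3.54 ± 0.48 (SD, n = 3) in hypothalamus, a log2 difference of 4.46 ± 0.37 (SE; limma adjusted p = 6.181e-05). Cerebellum was 5.15-fold above the next region.

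The remaining probes called higher in cerebellum were not called lower in hypothalamus. humanlincRNA2077+_P1 read -2.44 and -1.56 in cerebellum, and between -4.19 and -3.40 on the other 8 arrays, which overlapped among the 3 regions. Its cerebellum mean was 3.20-fold above the next region, hippocampus (adjusted p = 0.01081 by limma). Against the mean of the other regions it was higher by 1.76 ± 0.28 (log2, SE; limma adjusted p = 0.00246). Without cerebellum replicate 2, which leaves a single cerebellum array, this difference was 1.32. humanlincRNA1995+_P1 read -2.03 and -1.57 in cerebellum, -2.93, -2.70 and -3.32 in olfactory bulb, -3.60 and -3.59 in hippocampus, and -4.37, -3.83 and -3.71 in hypothalamus. Cerebellum was 2.28-fold above olfactory bulb (adjusted p = 0.01171), and no other region overlapped with cerebellum.

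In olfactory bulb, humanlincRNA1535-_P1 stood out with readings of 0.39, 0.15 and 0.22. It read -2.47, -2.53 and -2.65 in hypothalamus, -1.62 and -1.91 in hippocampus, and -1.92 and -2.08 in cerebellum. Every olfactory bulb array lay above every other array, and hippocampus and cerebellum lay next to each other without a called difference (adjusted p = 0.316). The olfactory bulb mean was 4.06-fold above that of hippocampus, a log2 difference of 2.02 ± 0.13 (SE; limma adjusted p = 2.618e-05). humanlincRNA1725+_P1 read -3.81, -3.84 and -3.91 in olfactory bulb and from -5.69 to -4.93 elsewhere, with hypothalamus, hippocampus and cerebellum overlapping. It was 2.50-fold higher in olfactory bulb than in hippocampus, the next region (adjusted p = 0.002032).

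The third olfactory bulb probe, humanlincRNA2250-_P1, was detected on all 3 scans of olfactory bulb, on 2 of 3 scans of hypothalamus, and on none of hippocampus or cerebellum. It read -4.66, -4.96 and -4.43 in olfactory bulb and -5.91, -6.14 and -5.95 in hypothalamus. It entered the tests through olfactory bulb alone, where it is brightest, so its p-values are not given as support. The regions without detection give only a bound. Taking as their level the higher of the probe's own signal and the lowest signal well above background on the array, olfactory bulb was at least 2.09-fold higher than hippocampus and at least 2.88-fold higher than cerebellum.

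Both probes called lower in cerebellum were close to background. humanlincRNA1015+_P1 was detected on 3 scans of hippocampus, 2 of olfactory bulb and 1 of hypothalamus, and on no scan of cerebellum. It was at least 1.72-fold higher in hippocampus than in cerebellum, short of a 2-fold difference. The readings were -8.31 and -8.66 in cerebellum and from -6.31 to -5.30 elsewhere. The -8.66, on cerebellum replicate 2, is the lowest human-named signal of that scan and is shared with humanlincRNA0931-_P1 and humanlincRNA2250+_P1. It is a limit and not a measured level. humanlincRNA0931-_P1 was detected on all scans of olfactory bulb and hypothalamus and on none of hippocampus or cerebellum. It read -5.69, -5.77 and -5.40 in olfactory bulb and -5.56, -5.21 and -5.21 in hypothalamus, which overlapped, and at most -7.17 in the other regions. Hypothalamus was at least 1.85-fold above cerebellum and at least 1.34-fold above hippocampus. Neither hippocampus nor cerebellum was well above background, so its call as lower in cerebellum than in hippocampus compares readings whose order is not established. Both probes entered the tests only through regions where they are bright, and their p-values are not given as support.

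The same limit holds for the probes detected in cerebellum alone. humanlincRNA0900+_P1 read -5.45 and -5.93 in cerebellum and from -8.59 to -6.45 elsewhere, where no reading was well above background. The -8.59, on olfactory bulb replicate 2, is again the lowest human-named signal of its scan. Cerebellum was at least 1.46-fold above olfactory bulb, 1.26-fold above hypothalamus and 1.04-fold above hippocampus. humanlincRNA1044-_P1 read -5.77 and -6.25 in cerebellum and from -7.50 to -6.33 elsewhere. Its bound was at least 1.17-fold over olfactory bulb and 1.01-fold over hypothalamus, and none could be given over hippocampus.

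In hippocampus and hypothalamus, where no probe was called 2-fold above every other region, some were highest by less. The example with the smallest F-test p among the probes highest in each region, leaving out humanlincRNA0931-_P1, was picked after its values were seen. humanlincRNA1172-_P1 was highest in hippocampus, at -0.85 and -0.98, against -1.55, -1.72 and -1.50 in olfactory bulb, -2.05, -2.09 and -2.06 in hypothalamus and -2.26 and -2.25 in cerebellum. No 2 regions overlapped, although hypothalamus and cerebellum were not called different (adjusted p = 0.215), and hippocampus was above olfactory bulb by 0.68 ± 0.10 (log2, SE; limma adjusted p = 0.001773). humanlincRNA1857-_P1 was highest in hypothalamus, at -3.78, -3.72 and -3.84, against -4.09 and -4.14 in hippocampus, between -4.45 and -4.35 in olfactory bulb and -5.07 and -4.91 in cerebellum. Here too no regions overlapped, and hypothalamus was above hippocampus by 0.34 ± 0.09 (log2, SE; adjusted p = 0.0413).

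The 5 human-named probes with the highest means were detected on all scans, and 1 of them passed the F test. humanlincRNA2397+_P1, with the highest mean, read between 5.84 and 6.39 over the 8 arrays of olfactory bulb, hypothalamus and hippocampus and 5.83 and 5.97 in cerebellum, so that cerebellum overlapped with olfactory bulb and hypothalamus and lay below both hippocampus arrays, 6.08 and 6.39. The F test gave an adjusted p of 0.545. The next 3, humanlincRNA0847-_P1, humanlincRNA1739+_P1 and humanlincRNA2330+_P1, did not pass the F test either (adjusted p = 0.941, 0.827 and 0.702). In humanlincRNA2330+_P1 a single array, olfactory bulb replicate 3, read 3.14, against 4.90 to 5.24 on the other 9. The last of the 5, humanlincRNA2438+_P1, read 4.00 and 3.95 in hippocampus and from 4.23 to 4.68 elsewhere, and differed (F test adjusted p = 0.0230). Its hippocampus difference from the mean of the other regions was -0.39 ± 0.09 (SE; limma adjusted p = 0.022). That difference was -0.41 without hippocampus replicate 1 and -0.36 without hippocampus replicate 2, each of which leaves a single hippocampus array. After subtraction of the local median on the array it was -0.41, and the probe did not pass the F test (adjusted p = 0.326).

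Among probes detected on all scans, the most even across regions were humanlincRNA1939-_P1, humanlincRNA2392-_P1 and humanlincRNA0459+_P1. They were chosen for the smallest standard deviation between regional means. humanlincRNA0459+_P1 read from -0.81 to -0.53 in olfactory bulb, -0.82 to -0.60 in hypothalamus, -0.83 and -0.49 in hippocampus and -0.74 and -0.54 in cerebellum. Its spread lay between replicates, and every region covered nearly the same interval.

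By strand sign, the minus-signed probes were detected more often on every scan. They were detected in 67.9% to 81.6% per scan and the plus-signed probes in 64.8% to 77.0%, both lowest in hippocampus replicate 2 and highest in olfactory bulb replicate 1. On all scans 338 minus-signed probes (60.9%) and 309 plus-signed probes (56.3%) were detected, and on no scan 64 and 87. The median level was -4.13 for the minus sign and -4.23 for the plus sign. The share that differed between regions ran the other way, with 31 of 411 plus-signed probes tested (7.54%) and 23 of 440 minus-signed probes tested (5.23%). Neither difference between the signs was tested.

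The paired names show how far the signs were detected together. Of the 547 numbers with both signs, 199 had both probes detected on all scans, 109 the plus-signed probe alone, 134 the minus-signed probe alone, and 105 neither. In 75 numbers 1 sign was detected on every scan and the other on none, with the plus sign detected in 33 and the minus sign in 42. For 12 numbers neither probe was detected on any scan. Across the 199 pairs detected on all scans, the levels of the plus-signed and minus-signed probes had a Pearson r of 0.12, as a description over pairs that share their arrays.

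No number had both of its probes differing between regions by limma's F test, and 2 had both at an unadjusted p under 0.05. Among the 325 numbers for which both signs were tested, the plus-signed probe alone differed in 26 and the minus-signed probe alone in 19. The change between regions in the plus-minus-minus difference, computed on each array, was tested directly with limma. It passed for 7 of the 325 numbers (2.15%), against 2.11% of the 521 pairs of opposite sign tested across the array. The 521 include the 325, so the 2 shares are not independent. Without olfactory bulb replicate 1 the count was 11, and without cerebellum replicate 1 it was 3.

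The 5 numbers with the smallest p-values were 0931, 1015, 1086, 1535 and 2052. Those of 1086, 1535 and 2052 were 0.00478, 0.00705 and 0.00706 (adjusted, limma). For 0931 and 1015 the call rests on readings of humanlincRNA0931-_P1 and humanlincRNA1015+_P1 that were not well above background, and is not given as support. In each number, the sign described above carried the regional difference, and the partner did not pass the F test. The partner humanlincRNA1015-_P1 read between -1.65 and -1.25 on all 10 arrays (adjusted p = 0.640). humanlincRNA0931+_P1 read between -5.15 and -4.60 (adjusted p = 0.0738), and humanlincRNA1086+_P1 between -3.75 and -3.08 (adjusted p = 0.728). humanlincRNA1535+_P1 read between -3.25 and -2.56 (adjusted p = 0.776), and humanlincRNA2052-_P1 between -5.11 and -4.02 (adjusted p = 0.831). Without cerebellum replicate 1, which leaves a single cerebellum array, the largest contrasts of 1015 and 2052 were 3.21 and 3.99 on the log2 scale. Without cerebellum replicate 2 that of 2052 was 3.96. With normexp background correction the largest contrasts of 0931 and 1015 were 0.66 and 0.83, and neither number passed the F test (adjusted p = 0.255 and 0.179). For number 1086, the plus-minus-minus difference averaged -4.45 in cerebellum and 0.22 in hypothalamus, a change of 4.67 ± 0.47 on the log2 scale (SE; limma adjusted p = 0.001116).

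The partners of the other region-marking probes did not pass the F test or were not tested. humanlincRNA0691-_P1 and humanlincRNA2077-_P1 were detected on all scans and did not pass (adjusted p = 0.994 and 0.958). humanlincRNA1725-_P1 and humanlincRNA1995-_P1 did not pass either (adjusted p = 0.955 and 0.194). humanlincRNA2250+_P1 was not well above background on any scan and was not tested.

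The spread of single arrays within regions was larger for these probes than the spread of their regional means. Among the 647 detected on all scans, the median standard deviation was 0.332 within regions and 0.203 between regional means, and the latter was the larger in 143 (22.1%). Each regional mean averages 2 or 3 arrays, which by itself lowers the second value, so the 2 are unlike measures. The corresponding medians were 0.301 and 0.230 for mouse-named probes, and 0.187 and 0.273 for array-design probes, of which 56.0% had the larger spread between regions. In each of 6 ranges of mean level the within-region median of the human-named probes was the larger. That of the array-design probes was the smaller in all ranges but the dimmest, where their medians were 0.263 within and 0.254 between regions. In these ranges, from -4 or less to over 0, between 4.69% and 8.50% of the human-named probes differed between regions, against 23.6% to 48.3% of the array-design probes. Among the mouse-named probes, 2 of 68 differed in the dimmest range (2.94%) and 6 of 40 in the brightest. The within-region medians of the human-named probes were 0.356 in the dimmest range and 0.368 in the brightest, and those of the array-design probes were 0.263 and 0.143.

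Much of the replicate spread was shared between regions. The difference of replicate 2 from replicate 1 had a standard deviation over the 647 probes of 0.890 in olfactory bulb, 0.684 in hippocampus, 0.551 in hypothalamus and 0.440 in cerebellum. It was at least 2-fold for 126 probes in olfactory bulb (19.5%, against 17.5% of mouse-named and 9.29% of array-design probes), 62 in hippocampus, 44 in hypothalamus and 20 in cerebellum. Across the probes these differences had a Pearson r of 0.773 between hypothalamus and hippocampus, 0.666 between olfactory bulb and hypothalamus, and 0.649 between olfactory bulb and hippocampus. With cerebellum, r was 0.132 to 0.188. Between the signs of a number, r was -0.14 to 0.07 over 199 pairs. An example, picked after its values were seen, is humanlincRNA1364-_P1, which read 4.43, 4.00 and 3.98 on replicate 1 of olfactory bulb, hypothalamus and hippocampus and 0.53, 2.08 and 2.07 on replicate 2. Its cerebellum arrays read 3.83 and 3.85.

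The same differences followed position on the array, which has 384 rows and 164 columns of spots. In rows 1 to 128 and columns 1 to 98, the 84 human-named probes detected on all scans had a median difference, replicate 2 minus replicate 1, of -1.33 in olfactory bulb, -1.18 in hippocampus, -0.78 in hypothalamus and 0.20 in cerebellum. The 9120 array-design probes of that block had medians of -0.42, -0.34, -0.28 and -0.07. In columns 132 to 164 of the same rows, the olfactory bulb median was 1.68 for 42 human-named probes and 0.52 for the array-design probes. Across all 647, a probe's difference was set against the median difference of the array-design spots in the 7 by 7 spots around it. The Pearson r was 0.764 in olfactory bulb, 0.626 in hippocampus, 0.559 in hypothalamus and 0.481 in cerebellum. Of the 126 probes with a 2-fold replicate difference in olfactory bulb, 77 lower and 45 higher lay in rows 1 to 192, and 1 lower and 3 higher in rows 193 to 384.

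The share of probes that differed between regions was low in both parts of the array, split at the middle row. In rows 193 to 384, where the within-region median fell to 0.249, 35 of 446 human-named probes tested differed (7.85%), against 9.52% of mouse-named and 37.9% of array-design probes. In rows 1 to 192, with a within-region median of 0.430, 19 of 405 differed (4.69%), against 6.93% of mouse-named and 35.7% of array-design probes. In an alternative chosen after seeing the data, a local median over 7 by 7 spots was subtracted from each reading. It was the median of the array-design probes' deviations from their means over scans. This gave 72 differing members (8.46%), and the replicate block on top of it gave 198 (23.3%, against 54.5% of all probes). Of the region-marking probes, humanlincRNA1086-_P1, humanlincRNA2052+_P1, humanlincRNA1535-_P1, humanlincRNA2077+_P1 and humanlincRNA1725+_P1 lay in rows 1 to 192 and the other 5 in rows 193 to 384. After the subtraction, with and without the block, all 10 kept the sign of their difference from the mean of the other regions and passed the F test. For humanlincRNA2250-_P1, humanlincRNA1015+_P1 and humanlincRNA0931-_P1 this rests in part on readings that were not well above background.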

How the data were processed

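Spot intensities of 12 scans, deposited by the authors as Agilent Feature Extraction 11.0.1.1 output (per the submitters' processing notes), were used as background-corrected processed signals. For each scan the 75th percentile of log2 processed signal was subtracted, control spots were removed and repeated spots of 1 probe averaged. The authors' deposited table of log2 values, with no account of how they were made, served as an alternative. Probes that every scan of any 1 region called well above background were tested with limma 3.58.1 (lmFit, eBayes) in R 4.3.3, over 10 arrays and 56573 probes, with Benjamini-Hochberg adjustment over all of them and 6 residual degrees of freedom. The fit was tested on simulated data. Near-identical scans were averaged.

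Named are the probes 2-fold apart from every other region, those detected in 1 region alone and the 5 with the highest means. Among probes detected on all scans, the 3 most and 3 least even across regions are named. The 5 strand pairs with the smallest p-values, the partners of the region-marking probes and humanlincRNA2392+_P1 are named too. The members and rules were chosen with earlier results of these data known.

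Alternatives were normexp background correction (offset 50), quantile normalization, the authors' table, other filters, all scans counted singly or the first of each near-identical pair, a replicate block, another variance model and leaving out each array. Replicate numbers 1 and 2 follow scan times 1 and 2. Replicate 3 had scan time 3 in olfactory bulb and hypothalamus and scan time 4 in hippocampus and cerebellum. Positions are spots on the array, not in the genome.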

Additional observations from a re-analysis of the deposited data

Results flagged for a closer look

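Among the controls that took no part in the comparisons, 15 probes have names that mark them as negative, and most copies of 2 of these gave a signal called well above background on each of the 12 scans, while 10 did so on none. The share of such spots well above background ran from 14.7% to 32.8% per scan. The scanner software's own negative control spots, 291 to 302 per scan, had a share of 0%. The part of such signal in the detection of human-named probes was not tested.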

How the results depend on the processing

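No named difference changed sign in any alternative run, but the majority direction of 2 pair comparisons did. For olfactory bulb against cerebellum (10 higher, 7 lower) it turned to 2 and 5 with normexp, 5 and 6 among probes detected on all scans, 11 and 18 with the replicate block, 15 and 18 with all scans, 10 and 17 with the local median and block, and 14 and 21 without olfactory bulb replicate 1. For olfactory bulb against hippocampus (6 and 1) it turned to 1 and 2 with normexp, 7 and 8 with all scans, and 7 and 9 without olfactory bulb replicate 1. The number of probes differing between the 4 regions (54) was 108 with no filter on dim probes, 138 with the replicate block, 117 with all 12 scans counted singly and 198 with the local median subtracted and the block. It ran from 38 to 61 when each array was left out. Of the 54, 49 were called with the block, 44 with quantile normalization, 44 with the authors' table and 44 with normexp. With normexp the pair counts fell to 4 for olfactory bulb against hypothalamus, 3 against hippocampus and 7 against cerebellum, and to 3, 8 and 10 for hypothalamus against hippocampus, hypothalamus against cerebellum and hippocampus against cerebellum. Normexp gave 5 probes higher and 3 lower in 1 region. Olfactory bulb against hippocampus gave 16 with no filter, 4 with probes detected on all scans, 11 with the replicate block, 15 with all scans and 12 with the local median and block. Olfactory bulb against cerebellum gave 11 with probes detected on all scans, 29 with the block, 33 with all scans and 27 with the local median and block. Hypothalamus against cerebellum gave 30, 36 and 27 under the last 3 of these. The probes lower in 1 region were 3 among probes detected on all scans. The strand pairs (7) were 15 with all scans and 13 with the local median and block.

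Leaving out each array gave 7 to 16, 6 to 16 and 15 to 35 for olfactory bulb against hypothalamus, hippocampus and cerebellum. It gave 5 to 9 for hypothalamus against hippocampus, 13 to 22 for hypothalamus against cerebellum and 13 to 23 for hippocampus against cerebellum. The probes higher in 1 region ran from 6 to 11, those lower from 4 to 9 and the strand pairs from 3 to 11. The cause of these changes was not tested. Over 13 pairs of same-numbered arrays, deviations from the regional means correlated at 0.09 to 0.75, so same-numbered arrays shared variation. The labels do not say whether the numbers pair the samples. The main test leaves this variation in its error, and the replicate block models it. A named call was counted as held where its difference kept its sign and the F test passed. Of 21 named calls, 18 to 21 held in each alternative that left no region with a single array. The exception was the run among probes detected on all scans, where 14 could be run and all 14 held. Signal over background limits the probes detected in part of the scans, for which bounds alone are given.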
